A study of Drosophila melanogaster with 2 samples.

Results

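Chromosome 4 of Drosophila melanogaster contributed 246 of the 30000 regions in the merged ChIP-seq peak list for CG10631-eGFP on the dm6 assembly. A region was a member when the merged list placed it on that chromosome, whatever its signal. A subset of 33 of the 246 also belonged to the list of 8399 regions that passed the irreproducible discovery rate (IDR) comparison, called the IDR regions here. Some entries of the list overlap, and joining those left 209 separate intervals, 30 of them holding an IDR region. The chromatin came from whole white prepupae, animals at the immobile start of metamorphosis, of a transgenic line that stably expresses CG10631 with green fluorescent protein at its C terminus. It was sheared by sonication to 200 to 800 bp and precipitated with an antibody to the tag. The samples form 1 group of 2 biological replicates, numbered 2 and 3, with no second condition, so regions could be compared along the genome and between replicates but not between conditions. All cell types of the animal are pooled in each sample, the sex of the animals was not collected, and the regulatory sequence driving the transgene is not given in the sources used here. Regions are not replicates, and an exact permutation test over 2 replicates cannot reach a p of 0.05. Differences below are therefore given as values without a test. Many shares also have a 95% Wilson interval or the same value in each replicate.

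Chromosome 4 is the small dot chromosome of this species. Most of it carries heterochromatin proteins such as HP1, and the protein POF coats it, yet many of its genes are transcribed. Those genes lie among short remnants of transposable elements, above all the families INE-1 and 1360. In the assembly the chromosome spans 1348131 bp, of which annotated transposable elements cover 24.8% against 5.74% of the bases of the other arms together. Its GC content is 35.2% against 42.2%.

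The sequence under the strongest summits is AT-rich. The windows below, of up to 151 bases centred on the summit and ended where an annotated exon begins, show what the strongest regions and those with known motifs look like. All are read 5′ to 3′ on the plus strand of dm6. Capitals mark matches, on either strand, to TATCGATA (the element bound by DREF, a regulator of housekeeping promoters), CGATA (the core bound by the insulator protein BEAF-32, also contained in TATCGATA), TATAAA (the TATA box of core promoters), CACACA (a short repeat), AGATAA (bound by GATA factors), CAGCTG (an E-box) and the 6-mer CAGTGC. Of the 5 strongest regions, the strongest lies in a 3′ UTR and is named only. The other 4, at the promoters of gw, Sox102F, PlexA and lgs, have GC contents of 30.5% to 33.8% in these windows, and only PlexA holds any of the 7 motifs, with a pair of GATA sites on opposite strands.
gw (chr4:660015-660165): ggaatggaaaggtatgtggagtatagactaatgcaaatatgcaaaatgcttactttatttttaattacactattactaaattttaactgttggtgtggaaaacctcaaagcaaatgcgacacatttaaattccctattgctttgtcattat
Sox102F (chr4:807557-807707): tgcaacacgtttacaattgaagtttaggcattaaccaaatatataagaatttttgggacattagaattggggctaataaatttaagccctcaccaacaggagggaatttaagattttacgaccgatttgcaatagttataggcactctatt
PlexA (chr4:1027197-1027347): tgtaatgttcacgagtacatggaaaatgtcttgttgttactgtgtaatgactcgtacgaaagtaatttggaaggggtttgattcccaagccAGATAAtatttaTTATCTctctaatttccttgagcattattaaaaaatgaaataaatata
lgs (chr4:444005-444155): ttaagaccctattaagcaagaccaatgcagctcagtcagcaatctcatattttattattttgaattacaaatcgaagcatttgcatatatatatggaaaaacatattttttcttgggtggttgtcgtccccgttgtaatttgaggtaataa
The next 5 are weaker IDR regions shown because they carry a motif. The windows of fuss and Rnf11 hold CAGTGC, those of CG46466 and RpS3A the BEAF-32 core, and that of Hcf the DREF element just before an exon. The RpS3A window also holds a TATA box read on the minus strand, the strand of the gene.
fuss (chr4:982929-983079): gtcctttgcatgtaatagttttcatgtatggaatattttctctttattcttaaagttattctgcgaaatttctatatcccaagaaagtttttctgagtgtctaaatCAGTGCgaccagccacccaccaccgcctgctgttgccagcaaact
CG46466 (chr4:663145-663295): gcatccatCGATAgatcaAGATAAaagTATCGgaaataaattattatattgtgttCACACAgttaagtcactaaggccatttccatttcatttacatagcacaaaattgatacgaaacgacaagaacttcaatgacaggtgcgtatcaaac
RpS3A (chr4:67208-67326): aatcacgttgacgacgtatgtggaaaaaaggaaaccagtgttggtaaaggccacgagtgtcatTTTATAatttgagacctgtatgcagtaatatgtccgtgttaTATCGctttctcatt
Hcf (chr4:359809-359937): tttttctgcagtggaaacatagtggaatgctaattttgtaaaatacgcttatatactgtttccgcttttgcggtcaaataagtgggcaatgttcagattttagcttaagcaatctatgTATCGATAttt
Rnf11 (chr4:314727-314877): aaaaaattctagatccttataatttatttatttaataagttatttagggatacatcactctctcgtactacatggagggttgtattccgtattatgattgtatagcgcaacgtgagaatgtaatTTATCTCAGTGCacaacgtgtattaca
A match describes the letters only and was not taken as a binding site.

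Chromosome 4 regions were weak for this list. The 33 IDR regions were 13.4% of the 246 (9.71 to 18.2%), while 28% of all 30000 regions were in the IDR list. The share lay between 27.4% and 29.0% on each of the other arms, 2L, 2R, 3L, 3R and X. The IDR list consists of the 8399 regions of highest signal, so the same comparison can be made in each replicate by its own 8399 strongest regions. Replicate 2 had 285 chromosome 4 regions, 31 of them (10.9%, 7.77 to 15.0%) among its strongest. Replicate 3 had 225, with 32 (14.2%, 10.3 to 19.4%) among its strongest. The mean over both was 12.5% ± 2.37 (SD, n = 2), against 28.2% and 28.1% on the other arms. In both replicates the chromosome 4 interval lay below the value of the other arms.

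Signals here are the authors' values per peak in the peak caller's units. They ranged from 30.2 to 637 on chromosome 4, with a median of 42.1 against 54.8 on the other arms. The median rank was 19903.5 (1 is strongest; quartiles 12275.8 and 25030.8), against 14959.5 on the other arms. Within the replicate lists, also of 30000 regions each, the median rank was 20226 in replicate 2 and 18761 in replicate 3. A single chromosome 4 region stood among the 1000 strongest. Among the IDR regions the median signal was 143 and the highest 637, against 190 and 3942 elsewhere. The merged list is described as peaks and background, and the median deposited −log10 q-value was 0.304 on chromosome 4 and 0.603 on the other arms, so most entries on the chromosome are weak calls.

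**Figure D1:**
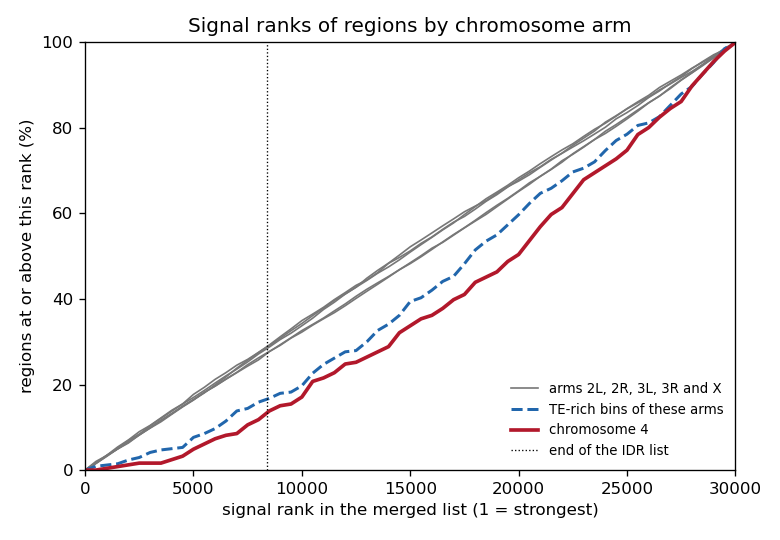
Share of regions (%, vertical axis) at or above each signal rank in the merged list (horizontal axis, 1 = strongest) for chromosome 4, for each other arm and for transposon-rich bins of those arms. The chromosome 4 curve runs below those of the arms, and at the end of the IDR list (rank 8399, dotted line) it stands at 13.4%.

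Regions from repeat-rich parts of the other arms ranked low too. The 50 bins of 100 kb on the other arms with at least the transposable element share of chromosome 4, a comparison chosen after seeing the data, held 340 regions. Of these, 56 (16.5%, 12.9 to 20.8%) were IDR regions, an interval that overlaps that of chromosome 4. Their median rank was 17835 and their median signal 46.4. Elements cover 46.8% of the bases of the bins, against 24.8% on chromosome 4, so the bins are richer in repeats than the chromosome. The part of repeat content in the low ranks of chromosome 4 was not tested. With the 26 summits inside annotated elements left out, the IDR share on chromosome 4 was 15.0% of 220 regions, against 28.2% elsewhere.

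Regions were spread over most of the chromosome. There were 182 per Mb, against 184 to 243 per Mb on the other arms, and 24.5 IDR regions per Mb, against 53.3 to 68.9. The transposon-rich bins held fewer than chromosome 4, with 68 regions and 11.2 IDR regions per Mb. Summits ran from position 41845 to 1272469 with a median spacing of 2477 bp, and the longest gap between neighbouring summits was 36616 bp, from 87124 to 123740. By bins of 100 kb, numbered from the left end, the count ranged from 7 in bin 13 to 31 in bin 11, which runs from position 1000001 to 1100000. No bin held more than 5 IDR regions, and bins 3, 6, 8 and 13 held none. The last, partial bin, number 14, is 95.4% transposable element sequence and held no region.

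The strong sites recurred in both replicates. All 33 IDR regions overlapped a region of replicate 2 and a region of replicate 3, as did 99.0% of IDR regions elsewhere; the IDR list was itself made by comparing the replicates. Their signals ranged from 42.0 to 311 (median 68.7) in replicate 2 and from 36.2 to 323 (median 72.9) in replicate 3. The ratio of replicate 3 to replicate 2 had a median of 1.01 (range 0.537 to 1.78), and 19 of the 33 were higher in replicate 3. Summits lay a median of 11 bp from those of replicate 2 and 5 bp from those of replicate 3. By strength, 24 of the 33 overlapped the 8399 strongest regions of both replicates, 29 those of replicate 2 and 28 those of replicate 3. These 3 counts were not made for IDR regions elsewhere, so they are not shown to be particular to chromosome 4.

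Weaker chromosome 4 regions recurred less. Of all 246, 153 (62.2%, 56.0 to 68.0%) overlapped a region in both replicate lists, against 73.9% of all merged regions. Replicate 2 covered 200 (81.3%), replicate 3 covered 188 (76.4%), and 11 (4.47%) were in neither, against 2.30% elsewhere. Below the IDR list the share in both was 120 of 213 (56.3%), against 64.2% on the other arms. In the transposon-rich bins both replicates held 68.8% of the regions (63.7 to 73.5%), an interval that overlaps that of chromosome 4. A weak entry that overlaps a strong one can be matched with the same replicate region, since entries overlap. Among the 153 shared regions, 11 differed over 2-fold between replicates, against 7.25% elsewhere.

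**Figure D2:**
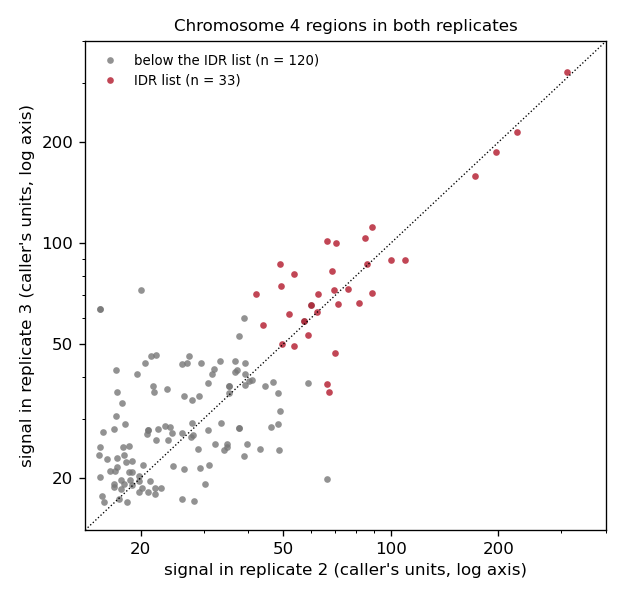
Signal in replicate 3 against signal in replicate 2 (caller's units, log axes) for the 153 chromosome 4 regions found in both lists, with the dotted line at equality. The 4 strongest IDR regions lie close to the line between 159 and 323, and regions below the IDR list scatter more widely.

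Promoters held a larger share of the summits than on the other arms together, though not clearly larger than in the transposon-rich bins. Taking any position up to 500 bp from an annotated start site as promoter, 86 of the 246 summits were promoter summits (35.0%, 29.3 to 41.1%), against 21.3% of all merged regions. The share was 35.4% in replicate 2 and 35.6% in replicate 3, against 21.3% and 21.6% on the other arms. Promoters make up 10.7% of the chromosome's bases and 13.6% of those of the other arms. Among the IDR regions, 20 of 33 summits (60.6%, 43.7 to 75.3%) were in promoters, against 31.2% of all IDR regions. Among each replicate's strongest regions the share was 64.5% of 31 in replicate 2 and 59.4% of 32 in replicate 3. In the transposon-rich bins the promoter share was 29.7% of all regions (25.1 to 34.8%) and 39.3% of IDR regions (27.6 to 52.4%), and both intervals overlap those of chromosome 4. Introns held 86 summits (35.0%), against 48.2% elsewhere, and 6 of the 33 IDR summits (18.2%), against 45.9%. Intergenic sequence held 35 summits (14.2% against 25.6%) and 5 IDR summits (15.2% against 20.6%).

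The IDR share was lower than on the other arms in promoters and introns, the classes with most regions. In promoters 20 of 86 regions (23.3%, 15.6 to 33.2%) were IDR regions, against 41.2% on the other arms and 21.8% in the transposon-rich bins. In introns 6 of 86 were (6.98%, 3.24 to 14.4%), against 26.8% and 16.1%. In intergenic sequence 5 of 35 were (14.3%, 6.26 to 29.4%), an interval that holds the 22.7% of the other arms. The 3′ UTR and 5′ UTR classes did not show a lower share: 1 of 10 regions against 9.62%, and 1 of 2 against 17.3%, counts too small to place. Recurrence differed by class too. Both replicates held 71 of the 86 promoter regions (82.6%), against 81.1% elsewhere, but 46 of the 86 intronic ones (53.5%), against 73.9%.

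**Figure D3:**
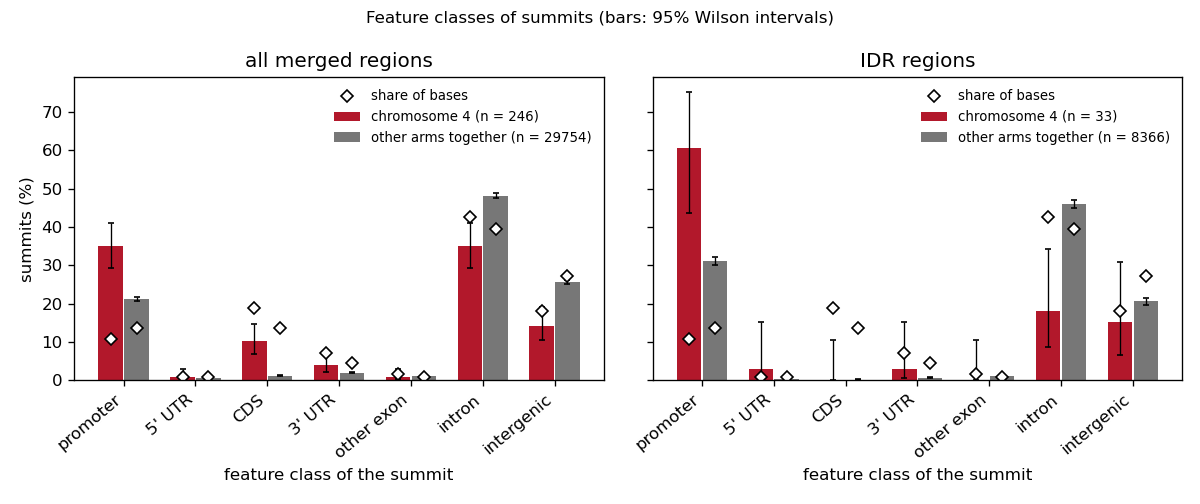
Share of summits (%) by feature class for chromosome 4 and for the other arms, for all merged regions and for IDR regions, with 95% Wilson intervals as bars and the share of bases in each class as diamonds. On chromosome 4 the promoter share was 35.0% of all regions and 60.6% of IDR regions.

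The IDR promoter summits of chromosome 4 lay upstream of the start. All 20 IDR promoter summits were upstream of the nearest annotated start site, at a median of -130 bp (from -464 to -44). Of the 66 weaker promoter summits 43 (65.2%) were upstream, with a median of -59 bp. These positions were not measured on the other arms, so upstream placement is not shown to be particular to chromosome 4.

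**Figure D4:**
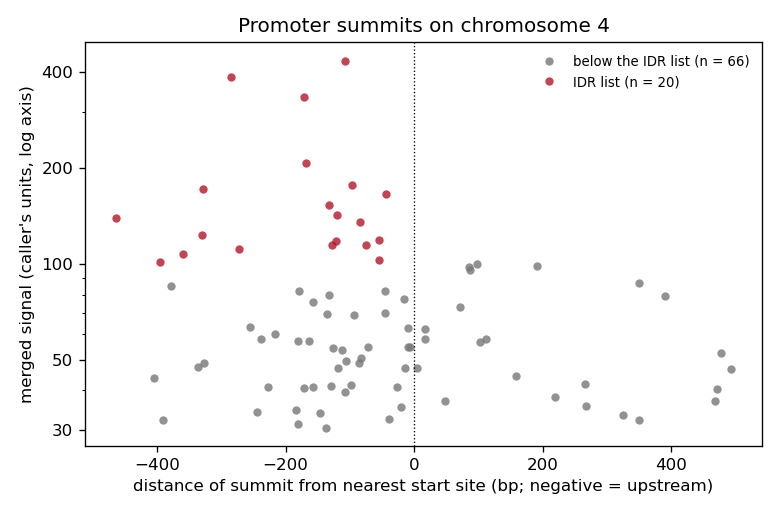
Merged signal (caller's units, log axis) of the 86 promoter summits on chromosome 4 against distance from the nearest start site (bp, negative = upstream). The 20 IDR summits lie between -464 and -44 bp, and weaker summits fall on both sides of the start.

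Of the 80 protein-coding genes annotated on chromosome 4, 21 (26.3%, 17.9 to 36.8%) had an IDR summit in a promoter, and 19.4% of all 13945 protein-coding genes on the 6 arms did. By each replicate's strongest regions the count was 21 in replicate 2 and 19 in replicate 3. A further 36 genes had only weaker promoter regions, so 57 (71.3%, 60.5 to 80.0%) had a promoter summit of any strength, against 34.4% of all genes. The other 23 had none, and 10 of those had no region in the gene body either. Genes that share a promoter region were each counted: the summits at CG46466 and Slip1, Taf3 and CG33941, CG11076 and ATPsynbeta, and Zyx and apolpp each served a pair, and pho had 2 overlapping regions. The counts by role below are small, and are to be read against 21 of the 80 genes (26.3%) with an IDR promoter summit on the chromosome and 19.4% of all genes, and against 71.3% and 34.4% with a promoter summit of any strength. None is shown to differ from these shares.

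The strongest region on the chromosome was at none of these promoters. It covered chr4:1113222-1113468, where the 3′ ends of sv, a Pax-family transcription factor gene, and Cals, a calsyntenin gene, overlap on opposite strands. The summit lay in a 3′ UTR, 9650 bp downstream of the nearest start site, that of Cals. Its signal was 637 (rank 634), with 311 in replicate 2 and 323 in replicate 3. Both replicate signals were the highest on the chromosome in their lists. The 4 next strongest were promoters.

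The list of housekeeping genes held 17 that matched the annotation (Fis1 did not match). It had 6 IDR promoters, beside 26.3% of all genes of the chromosome, 8 genes with weaker promoter regions only and 3 with none (Tdg, Gyf and 4E-T). At gw, whose product GW182 acts in microRNA silencing, the region chr4:659979-660152 had a signal of 434 (225 in replicate 2 and 215 in replicate 3), with the summit at -107 bp from a start site (negative is upstream). The region at RpS3A, a ribosomal protein gene, had a signal of 165 (89.0 and 71.2), with the summit at -44 bp. At pho, which encodes a DNA-binding Polycomb group protein, the stronger of the overlapping regions had 153 (68.7 and 82.7). The Hcf region, at the gene of a chromatin cofactor and with the DREF element printed above, had 119 (59.8 and 65.7). The shared region of CG11076 and ATPsynbeta, a subunit gene of the mitochondrial ATP synthase, was weak and less even between replicates, at 102 (67.4 and 36.2). Slip1 shared a region of 177 (85.8 and 86.8) with CG46466.

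Developmental transcription factors had 2 IDR promoters among 13 genes, beside 26.3% of the chromosome's genes, with 5 weaker only and 6 without a promoter region. The Sox102F region chr4:807412-807851 lies at an internal start of this SoxD-family gene and had a signal of 386 (197 in replicate 2 and 188 in replicate 3). Sox102F also held 2 intronic IDR regions, with signals of 152 and 119, and 9 regions in its body in all. At dati, a zinc finger gene, the region had 139 (53.9 and 80.8), the most distant of the IDR promoter summits at -464 bp. The weaker group was ci, pan, NfI, ey and Mitf. Of these ey, a Pax6 gene of eye development, was closest to the IDR list with 98.0 (39.0 and 60.0). The genes zfh2, onecut, fd102C, fuss, toy and sv had no promoter region. Other IDR regions lay at a distance from fuss and ci. The summit of chr4:982784-983223 was at -4515 bp from fuss, a Ski/Sno-family gene, with a signal of 195 (84.9 and 103). Summits at -3495 and -2717 bp from ci, the transcription factor gene of Hedgehog signalling, had 190 (100.3 and 89.2) and 110 (58.7 and 53.4) and lay in an intron of asRNA:CR43957. These regions are linked to fuss and ci by nearness alone.

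Signalling genes had 2 IDR promoters among 11 genes, close to the 19.4% over all genes, with 6 weaker only and 3 without. PlexA, a semaphorin receptor gene, had 333 (173 in replicate 2 and 159 in replicate 3) at chr4:1027185-1027346. The lgs region, at the gene of a Wingless pathway coactivator, had 208 (110 and 89.0). The gene of the TGF-beta family ligand myo had no promoter summit but had a 5′ UTR region of 153 (81.7 and 66.5) and a region at -724 bp of 138 (48.9 and 87.1). Asator, a tau-tubulin kinase family gene, likewise had IDR regions just outside the promoter interval, at -539 and -510 bp from start sites, with 174 (66.3 and 102) and 144 (69.5 and 72.9).

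The list of synaptic and neuronal genes had 2 IDR promoters among the 10 that matched (KaiR1C did not), again close to 19.4%. It had 3 genes with weaker promoter regions only and 5 without. CaMKII, a calcium-dependent kinase gene, had 172 (70.3 in replicate 2 and 100.5 in replicate 3), and an overlapping region at -529 bp had 101.5 (43.9 and 57.1). The gene unc-13, whose product primes synaptic vesicles, had 115 (57.4 and 58.9) at a promoter. Its body also held the overlapping regions at the promoter of asRNA:CR44029, with 123 and 114. The list also counts bt, the gene of the muscle protein projectin, among the 5 without. That gene held 9 regions in its body and none in a promoter.

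The remaining 29 protein-coding genes had 9 IDR promoters, beside 26.3% of the chromosome's genes, 14 weaker only and 6 without. Signals in the 9 ran from 101.5 at the shared Zyx and apolpp promoter (53.8 in replicate 2 and 49.6 in replicate 3) to 177 at CG46466. Between them were Arl4, a small GTPase gene, with 143 (62.6 and 70.9), CG11360 with 136 (71.4 and 65.8), and Rnf11, a RING finger gene, with 118 (70.1 and 47.2) and an intronic region of 104 (49.7 and 50.2). The promoter of Taf3, a TFIID subunit gene, and CG33941 had 111, with 66.2 in replicate 2 and 38.1 in replicate 3. An intergenic IDR region near lncRNA:CR43437 had 202 (88.7 and 112), above all 9.

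The end of the IDR list falls in a continuous series of signals. The weakest IDR region on the chromosome had 101.5 and the strongest outside had 99.5, at the promoter of asRNA:CR44030 (58.8 in replicate 2 and 38.5 in replicate 3). The next outside were a second Zyx and apolpp promoter region (98.4), ey (98.0), Cadps with Dyrk3 (95.7) and an intergenic region at snoRNA:CD-24 (89.3). The 5 weakest of the 246, from 30.2 to 30.5, were a CG11155 promoter, introns of Ekar and onecut, and coding sequence of Eph and CG33978, none of them found in both replicates.

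Some genes held many regions. Of the 80 genes, 18 had 4 or more in their body. These counts were not scaled by gene length, and the whole chromosome held 182 regions per Mb. Entries that overlap were counted separately, and a region inside overlapping genes counted for each gene. The gene zfh2 had 14 with none in the IDR list, apolpp had 10 with 1, bt had 9 with none, and Sox102F had 9 with 3. In that order these genes span 39065, 16305, 52075 and 33958 bp. Of the others, unc-13 had 6 with 3 in the IDR list, Asator had 6 with 1, and CG33978 and Cadps had 6 each with none. The genes pan, Tdg, Ekar, ey and sv had 5 each, and CG31999, CG1674, dati, toy and Zyx had 4 each. Among these only sv and Zyx held an IDR region in the body, 1 each. Among the genes with 5 or 6, pan spans 44945 bp, unc-13 44508 bp and Cadps 40923 bp.

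Coding sequence held weak regions at a share well above that of the rest of the list. There were 25 summits (10.2%, 6.98 to 14.6%) in coding sequence outside promoters, against 1.22% of all merged regions and 2.94% in the transposon-rich bins. The share was 9.82% in replicate 2 and 12.0% in replicate 3, against 1.40% and 1.38% on the other arms. None of the 25 was an IDR region (upper limit 13.3% by the Wilson interval), and coding summits were seldom IDR regions elsewhere too, 10 of 341 (2.93%) on the other arms and 0 of 10 in the transposon-rich bins. Of the 25, 6 (24.0%) were in both replicates, against 37.2% of coding summits elsewhere. They fell in 15 genes, with 5 in apolpp, 4 each in CG33978 and bt, and 1 each in yellow-h, CG31999, dati, pan, Pur-alpha, eIF4G1, ey, Gat, Actbeta, CG1674, onecut and Eph. The strongest, in pan, the transcription factor of the Wingless pathway, had 65.0 (rank 12704), and the median was 34.4. Coding sequence makes up 18.8% of the chromosome's bases and 13.7% of those of the other arms. GC content in the 201 bp around these summits was 38.2% ± 5.58 (SD over 25 regions), and 46.9% ± 7.29 (SD over 341 regions) at coding summits elsewhere.

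Summits inside annotated transposable elements had low signals as well. There were 26 (10.6%, 7.32 to 15.0%), against 0.573% of all merged regions and 10.6% in the transposon-rich bins. Elements cover 24.8% of the bases of chromosome 4, 5.93% of those of all arms and 46.8% of those of the bins. In each, the share of summits lay below the share of bases. Replicate 2 had 33 (11.6%) and replicate 3 had 30 (13.3%). None was an IDR region (0 of 33, upper limit 10.4%), and none was among the 8399 strongest of either replicate. Element summits made up 0.287% of IDR regions on the other arms, and 24 of the 146 element summits there were IDR regions. INE-1 held 15, the family 1360 held 5, HB held 2, and Cr1a, R1A1, TART-A, gypsy4, jockey2 and transib3 held 1 each. A summit inside overlapping elements counts for each of their families. Of 566 annotated elements on the chromosome 344 are INE-1, which make up 29.1% of its element bases. The median signal was 39.2, and the strongest, an INE-1 in lncRNA:CR46488, had 72.7 (rank 11390). Both replicate lists held 14 of the 26.

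Base composition around the summits differed from that of the other arms. GC content in the 201 bp at the summit was set against the mean of equal windows centred 500 bp to either side. On the other arms summits were a local dip, with 36.7% at the summit and 42.8% in flanks, and differed from them by -6.14 ± 10.2 percentage points (SD over regions), and -10.2 ± 9.14 at IDR regions. On chromosome 4 the means of summit and flank were close, 34.1% ± 6.14 and 34.0% ± 5.56, a difference of 0.095 ± 7.12 points. At its IDR regions the difference was -0.362 ± 7.29, from 32.5% and 32.8%. In replicate 2 the difference over all chromosome 4 regions was -0.0227 and in replicate 3 0.799, against -6.10 and -5.70 on the other arms. Among each replicate's strongest it was -0.907 and 0.606, against -10.3 and -9.85, so its sign on chromosome 4 changed with the replicate while the gap to the other arms did not.

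Counted by region, 15 of 33 IDR summits on chromosome 4 had a lower GC content than their flanks, against 87.0% on the other arms. A dip of at least 10 points was present at 4 of the 33 (12.1%), against 51.9%. In promoters the mean difference was 0.0289 points on chromosome 4 and -7.29 elsewhere, and in introns -0.159 and -5.75. The transposon-rich bins lay between, at -2.29 over all regions and -7.59 at IDR regions. At IDR regions the summit means were 32.5% on chromosome 4 and 33.7% on the other arms, and the flank means were 32.8% and 44.0%.

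**Figure D5:**
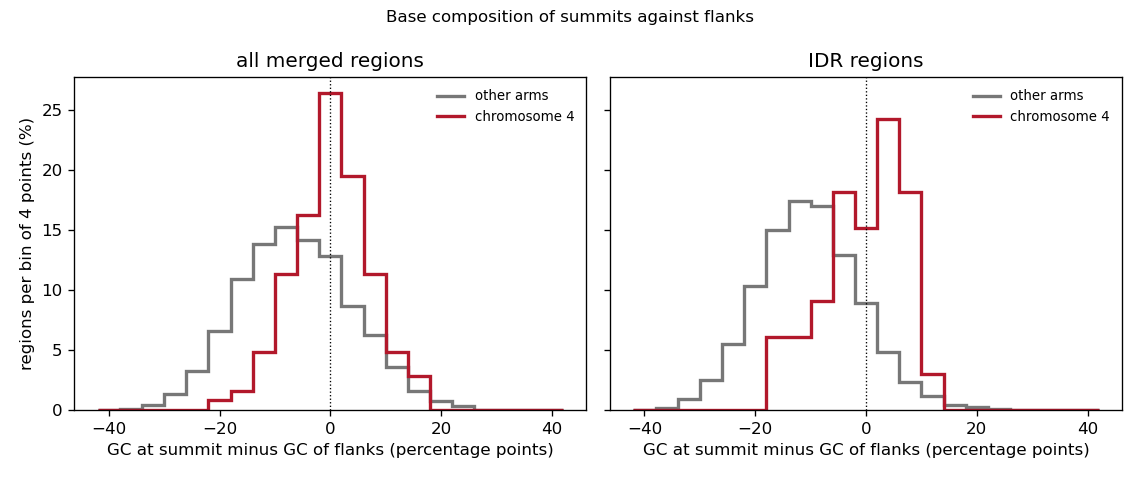
Distribution of GC content at summits minus GC content of flanks (percentage points; share of regions per bin of 4 points) on chromosome 4 and on the other arms, for all merged regions and for IDR regions. The chromosome 4 distributions centre near 0 (means 0.095 and -0.362), those of the other arms at -6.14 and -10.2.

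Motif shares in the 201-bp summit windows, searched on both strands, lay above those of the other arms for some motifs and below for others. CAGTGC was present in 9 chromosome 4 windows (3.66%), against 14.1% of windows elsewhere. At IDR regions it was in 2 of 33 (6.06%, 1.68 to 19.6%), an interval that holds the 18.2% of IDR regions elsewhere. Its share was 3.51% in replicate 2 and 6.22% in replicate 3, against 13.7% and 13.4%. The DREF element TATCGATA was in 11 windows (4.47%), against 1.17%, but in only 1 IDR window (3.03% against 1.71%). In the replicates it was in 3.86% and 3.56%, against 1.19% in each. The BEAF-32 core CGATA, which every DREF element contains, was in 34.1%, against 21.7%. In replicates 2 and 3 it was in 32.6% and 29.8%, against 21.3% and 21.8%. At IDR regions CGATA was in 39.4% (24.7 to 56.3%), against 22.4%, and in 21.4% (12.7 to 33.8%) in the transposon-rich bins. TATAAA was in 42.3% against 33.2%, and AATATA in 42.7% against 35.4%. In replicates 2 and 3 TATAAA was in 45.6% and 45.3%, against 33.1% and 32.5%, and AATATA in 44.2% and 41.8%, against 35.4% and 34.6%. At IDR regions these shares were closer, 42.4% against 40.3% and 45.5% against 43.9%. GCCAT, the core bound by Pho, was in 20.7% against 29.1%, and at IDR regions in 21.2% against 23.3%. It was in 24.6% in replicate 2 and 21.8% in replicate 3, against 28.6% and 29.5%. A run of 8 A was in 11.0% (7.65 to 15.5%) against 16.9%. By arm its share ran from 13.96% on 2R to 24.96% on X. The chromosome 4 interval holds the values of 2L (15.4%), 2R and 3R (14.6%), but not those of 3L (16.1%) and X. In replicates 2 and 3 the run was in 13.3% and 11.6%, against 16.7% and 16.6%. The shares of GAGAG (18.3% against 20.5%), CACACA (13.8% against 16.0%), AGATAA (13.01% against 13.8%) and CAGCTG (4.07% against 6.46%) were closer together. Several shares in the transposon-rich bins were near those of chromosome 4. There DREF elements were in 3.24% of windows (1.82 to 5.70%), AATATA in 43.5%, the Pho core in 22.9% and the E-box in 4.12%. CGATA was in 26.5% there, TATAAA in 36.5%, CAGTGC in 9.12% and the run of 8 A in 16.5%. Short motifs recur by base composition alone, which differs between chromosome 4 and the other arms, and its part in these shares was not tested.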

How the data were processed

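The deposited files used here are peak lists on dm6: a merged list and a list per replicate, each of 30000 regions, and an IDR list of 8399. The dm3 lists gave counts only. Each entry's signal, in units of the peak caller, and its −log10 q-value are the authors' deposited values, per the file headers and columns. Signals served only to rank and describe regions within a list. The sources used here do not give the aligner, caller, filters or IDR threshold. Read depth is unknown, and intervals and upper limits cover counting error alone. Controls (input or untagged chromatin) were not analysed here, so other sources of precipitated DNA were not measured. No value column of another sample was set aside (0 columns).

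Regions were matched between lists by an overlap of at least 1 bp. Summits were assigned in the order promoter (within 500 bp of a start site), then the coding and untranslated exon classes (5′ UTR, then CDS, then 3′ UTR), remaining exons, introns and intergenic sequence, on the Ensembl BDGP6.54 annotation, with transposable element annotations left out of the classes. GC content and 11 motifs were computed in 201 bp on the RefSeq dm6 sequence, with flanks centred 500 bp away. All positions are 1-based dm6. Wilson intervals had a confidence level of 95%. For shares of regions they treat each entry as independent, although 71 of the 246 chromosome 4 entries overlap another. Such intervals may be too narrow, and their position or overlap is a description, not a test. Python 3.11.15, numpy 2.4.6, pandas 2.3.3 and scipy 1.17.1 were used, and the functions were tested on simulated data.

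Named genes were those nearest to and hosting the IDR regions, the 5 strongest regions outside that list and the 5 weakest, members of 4 role lists, and genes with 4 or more regions in the body. Hosts of coding and element summits were added after their values were seen. The members, lists and tests were chosen with earlier results of these data known. Alternatives were other promoter windows, class orders, overlap rules, GC windows, the upper part of the IDR regions by signal, single replicates, the dm3 lists and, added after seeing the data, leaving out element summits and the transposon-rich bins.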

Additional observations from a re-analysis of the deposited data

How the results depend on the processing

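No paired analysis was possible because the samples form a single group, so no groups of samples could be paired; chromosome 4 and the other arms are set side by side within each replicate in the values above. Apart from the single replicates and the gene count over all merged regions, the alternatives below were computed for chromosome 4 only. They show how its own values move, and have no value of the other arms or of all genes at the same setting beside them. For the share of chromosome 4 regions in the IDR list (13.4%), the stronger part of that list (4199 regions) gave 3.25%, any overlap of 1 bp with an IDR region 16.3%, 50% reciprocal overlap 15.9%, and single replicates 10.9 to 14.2%. The share found in both replicates (62.2%) was 56.1% at 50% reciprocal overlap, 46.7% with summits within 100 bp, and 76.4 to 81.3% when only 1 replicate was required. The promoter share of all regions (35.0%) was 25.6% with a window of 250 bp, 45.9% with 1000 bp, 26.0% with exon classes first, 31.7% with protein-coding starts only, and 35.4 to 35.6% in single replicates. At IDR regions (60.6%) it was 39.4%, 78.8% and 54.5% with 250 bp, 1000 bp and protein-coding starts, and 59.4 to 64.5% in single replicates. The promoter shares of the other arms were measured only within 500 bp of any start site with promoters first. Whether the difference from those arms holds at the other settings was therefore not tested. The coding share ranged from 9.82 to 12.0% and the median rank from 18761 to 20226 in single replicates. Genes with an IDR promoter summit (21) fell to 12 with 250 bp and 4 with the stronger part of the list, and were 57 over all merged regions. The median log2 ratio of replicate 3 to replicate 2 (0.11) reversed to -0.0133 after dividing by each list's median. The GC difference was 0.745 points over all regions and 1.31 at IDR regions with a window of 50 bp on each side, and in single replicates -0.0227 to 0.799 and -0.907 to 0.606. The GC difference on chromosome 4 therefore has no stable sign. The causes of these changes were not tested. Of 33 alternatives for motif shares, 12 moved by less than the SD of the values from the single replicates. With 33 IDR regions, their promoter share has an interval of 43.7 to 75.3%.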
